A study of Mus musculus with 4 samples.

Results

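Spots were chosen by marker genes of the CA1 pyramidal layer, the band of principal cell bodies in hippocampal field CA1. They were 113 of 9676 Visium spots with 500 or more unique molecular identifiers (UMIs), or 1.17%. They are called CA1 spots below, but 37 of them lay outside an arc. In most sections further CA1 genes went against the label for those 37. In all, 10940 spots lay over tissue. Within each section, spots were ranked by the UMIs of Spink8 and Fibcd1 per 10000 UMIs of the spot, and the top 3% were taken. Of these, a spot was kept as a CA1 spot when it held 2 or more UMIs over Spink8, Fibcd1 and Wfs1, with at least 1 of them from Spink8 or Fibcd1. A spot is a small region that can hold several cells, so every share below is a share of spots.

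The study asked which genes differ in the dorsal hippocampus while a place memory is held without recall. It used male ArcCreERT2::eYFPflx mice on a C57BL/6 background, 3 to 4 months old, with 1 coronal section from each of 4 animals. The 2 trained mice learned active place avoidance on a rotating arena with a shock zone, and the 2 untrained mice had the same sessions with no shock. Tissue was taken 3 days after the retention test. All 4 animals received 4-hydroxytamoxifen under isoflurane. In these mice Cre is made under the control of Arc and acts only while tamoxifen or its derivative is present, so that eYFP marks cells that had expressed Arc around the injection. Such cells were not separated here, and a group of 2 mice of 1 sex limits what a comparison can show.

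CA1 pyramidal neurons are excitatory cells that receive input from CA3 and the entorhinal cortex and send the main output of the hippocampus to the subiculum and cortex. Many of them fire at particular places, and the field is needed for spatial memory. Their cell bodies form a thin layer, while their dendrites reach into neighboring layers that hold few cell bodies, so RNA carried into dendrites can be captured away from the pyramidal layer.

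In the following, values for the sections stand in the order trained 1, trained 2, untrained 1 and untrained 2. The sections held 28, 38, 18 and 29 CA1 spots. The UMIs summed over them were 110221, 173219, 64747 and 155349, so untrained 1 gave the smallest sum and trained 2 the largest. The median depth of a CA1 spot was 3051, 4156, 3126 and 3603 UMIs, against 2137, 2681, 1341 and 2024 UMIs for the other spots of the same sections. CA1 spots were thus deeper in each section, and the gap was widest in untrained 1. Deep spots meet the minimum of 2 marker UMIs more easily, so this gap is no result about the layer. The spots in the top 3% that were left out for a single marker UMI had medians of 2179, 2271, 1483.5 and 2069 UMIs. The median number of genes in a CA1 spot was 1890.0, 2282.5, 1774 and 2041. In untrained 2 a single spot of 24118 UMIs gave 15.5% of the sum, the largest share of 1 spot in any section. Levels below are in CPM, the UMIs of a gene per 1000000 UMIs of the sum.

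Untrained 1 also stood apart outside the CA1 spots. Gt(ROSA)26Sor, the transcript of the Rosa26 locus, had 123, 123, 13.5 and 221 CPM in the other spots of the 4 sections, and Bc1, a short noncoding RNA that is moved into dendrites, had 22686, 16185, 47543 and 34091 CPM. Untrained 1 was thus lowest for the first and highest for the second. The barcodes of CA1 spots mark positions on the array: of 108 distinct barcodes, 5 occurred in 2 or more sections.

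The genes that chose the spots are given as a description only. Spink8, a Kazal-type protease inhibitor (ENSMUSG00000050074, chr9:109812280-109826633 on the plus strand of mm10), had 35, 45, 15 and 53 UMIs in the CA1 spots, or 318, 259.8, 232 and 341 CPM. The other spots held 5.77, 4.66, 9.61 and 8.51 CPM. Fibcd1, a membrane receptor that binds acetylated sugars, had 23, 40, 17 and 25 UMIs, or 209, 231, 263 and 161 CPM in CA1 spots against 8.37, 8.72, 9.91 and 8.19 CPM elsewhere. Both genes were sparse, and trained and untrained sections overlapped in CA1 spots for each. Wfs1, a protein of the endoplasmic reticulum membrane, had 336, 318, 402 and 412 CPM in CA1 spots and 86.7, 67.4, 123 and 105 CPM in other spots, with both trained sections below both untrained ones. Of the 113 spots, 41 held Spink8 without Fibcd1, 40 held Fibcd1 without Spink8 and 32 held both. Wfs1 was found in 80 of them. The lowest scores inside the rule were 3.13, 2.87, 2.97 and 3.25, and the first spots past the 3% limit had scores of 2.86, 2.67, 2.90 and 3.19. Another 175 spots were in the top 3% but held a single marker UMI and were left out.

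The position of the spots was not used by the rule. On the array, 15.6, 18.5, 12.2 and 11.5% of the neighboring spots of a CA1 spot were CA1 spots too, against 0.829, 1.09, 0.719 and 0.996% of the neighbors of other spots. Of the 113 CA1 spots, 62 touched another CA1 spot and 51 did not. Linked over gaps of up to 3 array steps, 24, 25, 9 and 18 spots formed an arc in the upper part of each section, and 37 spots in all lay outside it. In untrained 1, spots on the continuation of the line past a wider gap counted as outside. Those 37 spots were kept as members, and values for the arc alone, chosen after seeing the data, are given beside some of the results.

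**Figure D1:**
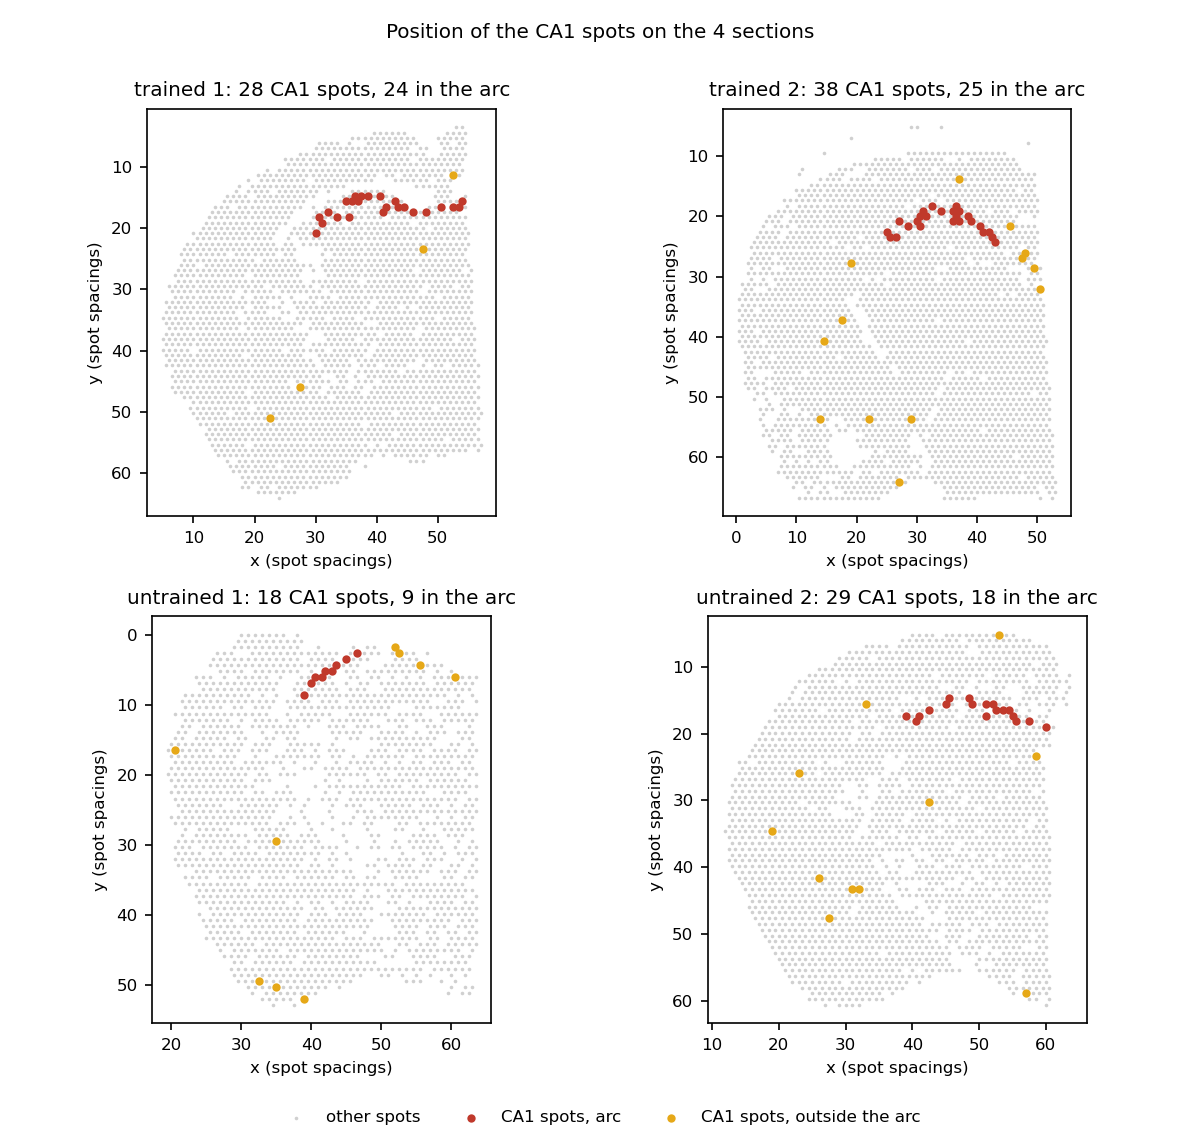
Position of the 113 CA1 spots on the 4 sections, in units of the spacing between spots. Red points form the arc (24, 25, 9 and 18 spots), yellow points are the other 37 CA1 spots and gray points are the other spots with 500 or more UMIs.

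The label was checked with 10 further genes known from CA1 that the rule did not read, among them Pou3f1, Mpped1, Man1a, Neurod6, Itpka, Hpca, Calb1, Ociad2 and Zbtb20. Their summed level in CA1 spots was 3756, 2927, 4077 and 3817 CPM, and in other spots 1039, 1038, 1106 and 1132 CPM. The mean over CA1 sums was 3.38 times that over other spots, and the ratio was smallest in trained 2. Of the 9 that reached 50 CPM, 8 were higher in CA1 spots in 4 of 4 sections. The exception was Calb1, a calcium buffer, at 109, 63.5, 124 and 103 CPM in CA1 spots and 173, 151, 172 and 165 CPM in other spots.

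The same sum separated the arc from the spots outside it. In the arc it was 4040.3, 3759, 5003 and 4878 CPM. Outside the arc it was 978, 983, 2678 and 1083 CPM. In trained 1, trained 2 and untrained 2 the CA1 spots outside the arc were thus no higher than other spots, and in untrained 1 they lay between. For these spots the data went against the label: they carried the marker UMIs that chose them, with a summed level of 879.9, 578, 931 and 1014 CPM for the 3 marker genes, but in 3 of 4 sections not the further genes. They held more RNA of thalamus than the arc, with 466 CPM on average for 8 genes against 147 CPM, but less than the 763 CPM of other spots. Outside the arc these values rested on 4, 30, 7 and 27 UMIs. Pmch, the hypothalamic melanin-concentrating hormone, averaged 559 CPM outside the arc and 210.4 CPM in it. Its levels in other spots, given below, differed widely among sections.

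Genes of other hippocampal fields were read in the same way. The 8 dentate granule genes summed to 81.7, 86.6, 46.3 and 135 CPM in CA1 spots and 100.1, 93.7, 93.7 and 101 CPM in other spots. CA1 spots were lower in 3 of 4 sections and higher in untrained 2. The 6 CA3 genes summed to 454, 450.3, 556 and 457 CPM, near the 466 CPM of other spots, and Iyd had 0 UMIs in all CA1 spots, for which 3 counts is the limit. The 6 CA2 genes summed to 1669, 1593, 1158 and 1571 CPM, and the 2 subiculum genes to 9.07, 23.1, 46.3 and 45.1 CPM. Of the 4 CA2 genes at 50 CPM, 3 were nonetheless higher in CA1 spots in 4 of 4 sections, Rgs14 among them. The most abundant, Pcp4, was lower, at 1016, 1079.6, 618 and 1017 CPM against 1627, 2639, 1368 and 1486 CPM. The 7 cortex genes averaged 316 CPM in CA1 spots and 505 CPM elsewhere, and the 8 thalamus genes 226 and 763 CPM.

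Differences between CA1 spots and other spots were described over 4481 genes that averaged 50 CPM or more in either class. Because the rule used this contrast, no test was run. In CA1 spots, 58 genes (1.29%) were at least 2-fold higher in 4 of 4 sections and 13 genes (0.29%) at least 2-fold lower. In direction alone, 820 (18.3%) were higher in all sections and 557 (12.4%) lower. The 58 genes, and the 20 with the highest ratio, include Spink8, Fibcd1 and Wfs1, which the rule itself used. The count of 58 depended on the spots taken, with 96 genes in the arc alone, chosen after seeing the data, and 32 at a share of 5%.

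Among the 20 genes with the highest ratio were transcription factors of pyramidal neurons. Pou3f1, a POU-domain factor, had 272, 86.6, 201 and 167 CPM in CA1 spots and 27.4, 23.8, 21.3 and 24.9 CPM in other spots. Its log2 ratio averaged 2.79 ± 0.67 (SD, n = 4 sections), and trained 2 was the lowest section. Neurod6, a basic helix-loop-helix factor of excitatory neurons, had 290.3, 225, 309 and 296 CPM in CA1 spots and 53.0, 42.7, 53.8 and 55.3 CPM in other spots. The log2 ratio was 2.45 ± 0.05, with little spread among sections. Zbtb20, a zinc-finger repressor needed for CA1 fate, had 99.8, 86.6, 139 and 77.2 CPM in CA1 spots and 27.7, 24.2, 26.4 and 32.1 CPM in other spots.

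The 20 also held genes of calcium binding. Hpca, hippocalcin, a neuronal calcium sensor, had 2349.8, 1749, 2440.3 and 2317 CPM in CA1 spots and 431, 473, 474 and 466 CPM in other spots. It was the most abundant of the 20, with a log2 ratio of 2.25 ± 0.25, and its 4 sections lay far above those of other spots. Cabp7, a calcium-binding protein of the calmodulin family, had 263, 167, 124 and 187 CPM in CA1 spots and 33.5, 49.2, 32.1 and 41.1 CPM in other spots. Of the 16 calcium-binding genes fixed as a list, 5 were higher and 6 lower in CA1 spots in 4 of 4 sections, beside 18.3% and 12.4% of all genes, with a median log2 ratio of -0.20. The class thus did not move as one. Their summed level was 15124, 12014, 15028 and 15031 CPM in CA1 spots and 10956, 11535, 11182 and 11349.5 CPM in other spots, led by Calm2, a calmodulin gene, at 3393, 3042, 3552 and 3238 CPM.

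Regulators of G proteins and small GTPases were also among the 20. Rgs14, a G protein regulator best known from CA2, had 354, 202, 232 and 289.7 CPM in CA1 spots and 44.0, 35.4, 48.1 and 54.5 CPM in other spots. All sections of CA1 spots lay above all of other spots. Rasd1, a glucocorticoid-induced Ras-like protein, had 172, 133, 92.7 and 212 CPM in CA1 spots and 30.7, 59.1, 36.0 and 28.0 CPM in other spots. Rasl11b, another Ras-like protein, had 281, 231, 124 and 251 CPM in CA1 spots and 55.6, 56.3, 44.8 and 63.7 CPM in other spots. Arhgap12 and Sipa1l3, which encode GTPase-activating proteins, averaged 138 and 105 CPM in CA1 spots and 33.2 and 29.1 CPM elsewhere.

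The rest of the 20 had varied roles. Wipf3, which binds the actin regulator N-WASP, had 626, 439, 571 and 560.0 CPM in CA1 spots and 108, 95.03, 123 and 129 CPM in other spots. It was the second most abundant of the 20. Crym, a thyroid hormone-binding protein, had 263, 300.2, 402 and 289.7 CPM in CA1 spots and 54.7, 56.9, 100.3 and 85.9 CPM in other spots. Gabra5, the alpha5 subunit of extrasynaptic GABA-A receptors, had 154, 121, 309 and 174 CPM in CA1 spots and 49.5, 48.4, 59.2 and 52.6 CPM in other spots. Untrained 1 was the highest section for both of these genes. Epha7, an ephrin receptor, and Igfbp4, which binds insulin-like growth factors, had log2 ratios of 1.79 ± 0.45 and 1.97 ± 0.29. Sertm1 and Sh3bp5 had log2 ratios of 2.09 ± 0.50 and 1.66 ± 0.48.

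**Figure D2:**
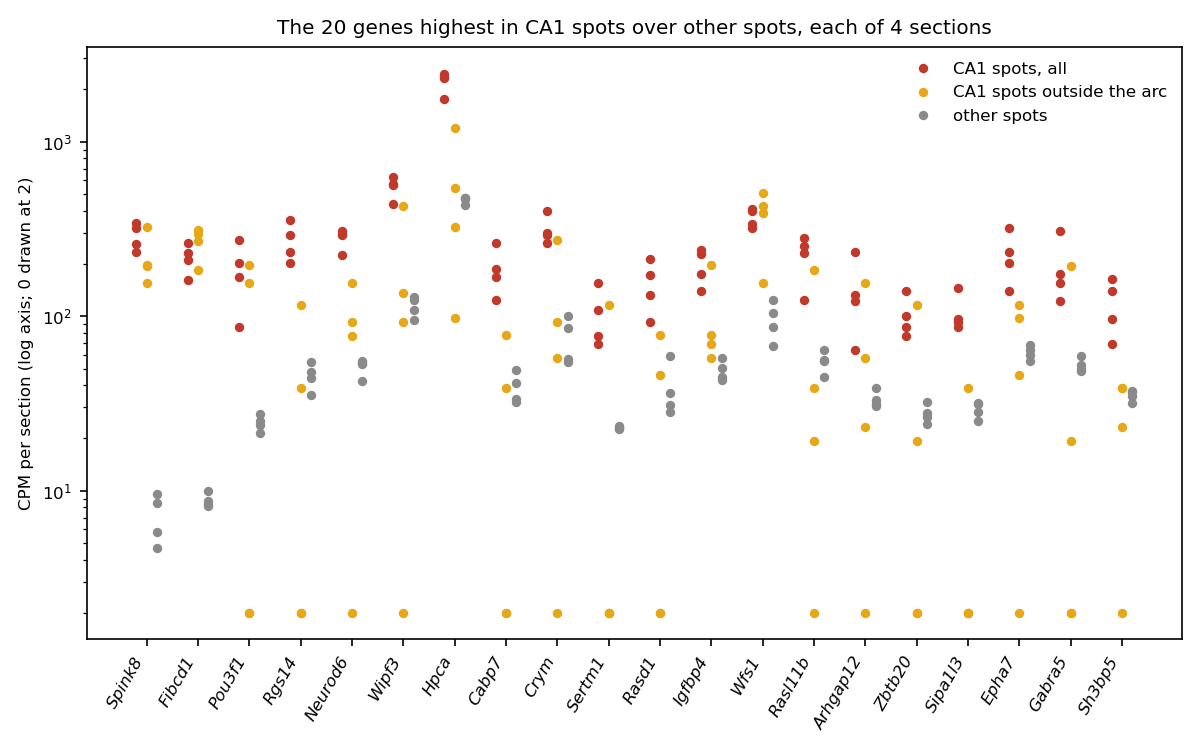
Levels of the 20 genes with the highest ratio of CA1 spots to other spots, in CPM on a log axis, with 1 point for each of 4 sections and a level of 0 drawn at 2 CPM. Red points are all CA1 spots, yellow points the CA1 spots outside the arc and gray points the other spots, and Hpca is the most abundant gene, with a mean of 2214 CPM in CA1 spots.

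Several of the 8 genes lowest in CA1 spots are known from other brain regions. Prkcd, a protein kinase C abundant in thalamus, had 9.07, 63.5, 77.2 and 96.6 CPM in CA1 spots and 188, 409.7, 238 and 208 CPM in other spots. Tcf7l2, a transcription factor of thalamic neurons, had 9.07, 23.1, 30.9 and 19.3 CPM in CA1 spots and 85.4, 134, 97.0 and 85.9 CPM in other spots. Slc17a6, the vesicular glutamate transporter of thalamus and brain stem, had 36.3, 63.5, 15.4 and 51.5 CPM in CA1 spots and 117, 149.6, 123 and 104 CPM in other spots. All 3 were lower in CA1 spots in each section. Pdp1, Csrp1 and Rims3 had log2 ratios of -1.74 ± 0.53, -1.69 ± 1.31 and -1.52 ± 0.37. Pmch differed widely among sections, at 9.07, 704, 448 and 109 CPM in CA1 spots and 61.8, 1339, 763 and 536 CPM in other spots.

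Some of the 20 genes were not particular to CA1 spots, as values in 82 dentate spots, chosen by Prox1, C1ql2 and Dsp, show. Of the 20, 14 were higher in CA1 spots than in dentate spots in every section, Spink8, Fibcd1 and Wfs1 among them. Zbtb20 had a mean of 127 CPM in dentate spots and 101 CPM in CA1 spots, and Wipf3 503 and 549 CPM. Epha7 had 218 and 223 CPM, and Cabp7, Sipa1l3 and Sh3bp5 were likewise not higher in CA1 spots in every section. Pou3f1 averaged 2.26 CPM in dentate spots. Another 157 spots, chosen by the CA3 genes Iyd, Cpne4 and Bok, carried 2353 CPM of thalamus genes, above the 763 CPM of other spots, so they are not called CA3 or set against CA1 spots. The members of the groups were chosen by expression, and these values are descriptions without a test.

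Synaptic genes were described by lists, beside a median log2 ratio of 0.03 over all 4481 genes, of which 18.3% were higher and 12.4% lower in 4 of 4 sections. Of the glutamate receptor and auxiliary subunit genes at 50 CPM, 9 of 13 were higher in CA1 spots in 4 of 4 sections and 1 lower, with a median of 0.64. Their summed level was 3992, 3545, 3568 and 3701 CPM, against 2263, 2239, 2548 and 2291 CPM in other spots, without overlap. In the arc it averaged 4082 CPM. In the dentate spots it was 3492, 2371, 3875 and 3593 CPM, higher than in CA1 spots in untrained 1 and lower in the other 3 sections, so the level was not particular to CA1 spots. Cnih2, an AMPA receptor auxiliary protein, led with 762, 600.4, 448 and 766 CPM. Grin1, the obligatory NMDA receptor subunit, had 608, 462, 587 and 469.9 CPM, and Gria2, the AMPA receptor subunit that limits calcium entry, 544, 485, 618 and 476 CPM.

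Of the postsynaptic scaffold and kinase genes, 19 of 30 were higher in all sections and 1 lower, with a median of 0.59. Their summed level was 12557, 11084, 14116 and 12823 CPM in CA1 spots and 12690.1, 8427, 11563 and 13470.1 CPM in dentate spots, which were higher in trained 1 and untrained 2 and lower in the other 2 sections. Nrgn, which binds calmodulin in spines, had 2522, 1605, 2626 and 2472 CPM against 1453, 1031, 1568 and 1647 CPM elsewhere. Ppp3ca, the catalytic subunit of calcineurin, had 1887, 1501, 2193 and 1699 CPM against 826, 714, 864 and 834 CPM. CA1 spots were above other spots in every section for both genes. Camk2n1, an inhibitor of CaM kinase II, went the other way, at 626, 791, 1035 and 695 CPM against 1274, 953, 1406 and 1412 CPM. Untrained 1 was the highest CA1 section for Camk2n1 and still lay below every section of other spots except trained 2.

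Voltage-gated channel genes had a median log2 ratio of 0.31, with 15 of 33 higher in 4 of 4 sections and 5 lower. This count and those of the next lists stand beside 18.3% higher and 12.4% lower over all genes. Scn3b, a sodium channel beta subunit, had 263, 294, 263 and 251 CPM in CA1 spots and 85.4, 73.8, 121 and 91.4 CPM in other spots, a nearly level value across the 4 CA1 sums. Kcnab2, a potassium channel beta subunit, had a log2 ratio of 0.81 ± 0.15. Of the GABA receptor genes, 3 of 12 were higher and 2 lower, with a median of 0.03. Gabbr1 averaged 624 CPM in CA1 spots. Presynaptic vesicle genes had a median of 0.12, with 6 of 21 higher and 5 lower. Snap25, a fusion protein of synaptic vesicles, had 2686, 2096, 2626 and 2781 CPM, and Rab3a and Vamp2 averaged 1006 and 989 CPM.

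Lists of metabolic and ribosomal genes are set beside the same 18.3% higher and 12.4% lower over all genes. The nuclear genes of oxidative phosphorylation had a median log2 ratio of 0.00, with 9 of 78 higher and 9 lower. The mitochondrially encoded genes summed to 86227, 80505, 80591 and 85453 CPM in CA1 spots and 122840.0, 68149, 120926 and 116245 CPM in other spots, so that CA1 spots were lower in every section but trained 2. Cytoplasmic ribosome genes had a median of -0.13, with 2 of 80 higher and 18 lower.

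Distance from the CA1 spots was then read in array steps to the nearest CA1 spot, where step 0 is the CA1 spots themselves. All 113 spots were used, among them the 37 outside the arc. The steps thus also hold the surroundings of those 37, and the values are no pure gradient away from the pyramidal layer. Steps from the arc alone were not read. The 10 further CA1 genes summed to 3756, 2927, 4077 and 3817 CPM at step 0, 2767, 1998, 2061 and 2143 CPM at step 1 and 1347, 1390.2, 1585 and 1199.8 CPM at step 2. The level was lower at each of these steps in each section, and differences beyond step 2 were smaller. Of the 12 RNAs known to be carried into dendrites, 6 were higher in CA1 spots in 4 of 4 sections and 2 lower, beside 18.3% and 12.4% of all genes, with a median log2 ratio of 0.31. Their summed level, 16775, 18583, 33098 and 22086 CPM in CA1 spots and 26668, 19551, 51923 and 38668 CPM in other spots, followed Bc1.

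Ddn, which encodes the postsynaptic protein dendrin, had 789, 750.5, 618 and 805 CPM at step 0, 645, 719.8, 676 and 661 CPM at step 1 and 497, 466, 625 and 493 CPM at step 3. In 3 of 4 sections it was highest at step 0, and in untrained 1 at step 1. Camk2a, the alpha subunit of CaM kinase II, averaged 686 CPM at step 0 and 706 CPM at step 1, with 2 sections higher at each. Psd and Shank1, postsynaptic proteins, averaged 542 and 137 CPM at step 0, 516 and 129 CPM at step 1. Nrgn was highest at step 0 in 4 of 4 sections.

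Bc1 ran the other way: it had 10597, 13607, 27106 and 15861 CPM in CA1 spots, 18131, 16078, 55946 and 23662 CPM at step 1 and 22242, 18409.6, 58942 and 27236 CPM at step 2. It was lowest in the CA1 spots of every section. Kif5a, a kinesin heavy chain, averaged 335 CPM at step 0, 394 CPM at step 1 and 483 CPM at step 3. Arc, an immediate early gene whose mRNA is sent to active synapses, had 272, 214, 124 and 174 CPM in CA1 spots, 134, 128, 71.6 and 160.0 CPM at step 1 and 105, 116, 30.6 and 136 CPM at step 2. It was higher at step 0 than at step 1 in 4 of 4 sections. Over all steps read it was highest at step 0 in 3 of 4, since untrained 2 had 199 CPM at step 5. Dlg4, Map2, Itpr1 and Dlgap3 averaged 235, 333, 188 and 146 CPM at step 0 and 194, 309, 199 and 143 CPM at step 1.

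**Figure D3:**
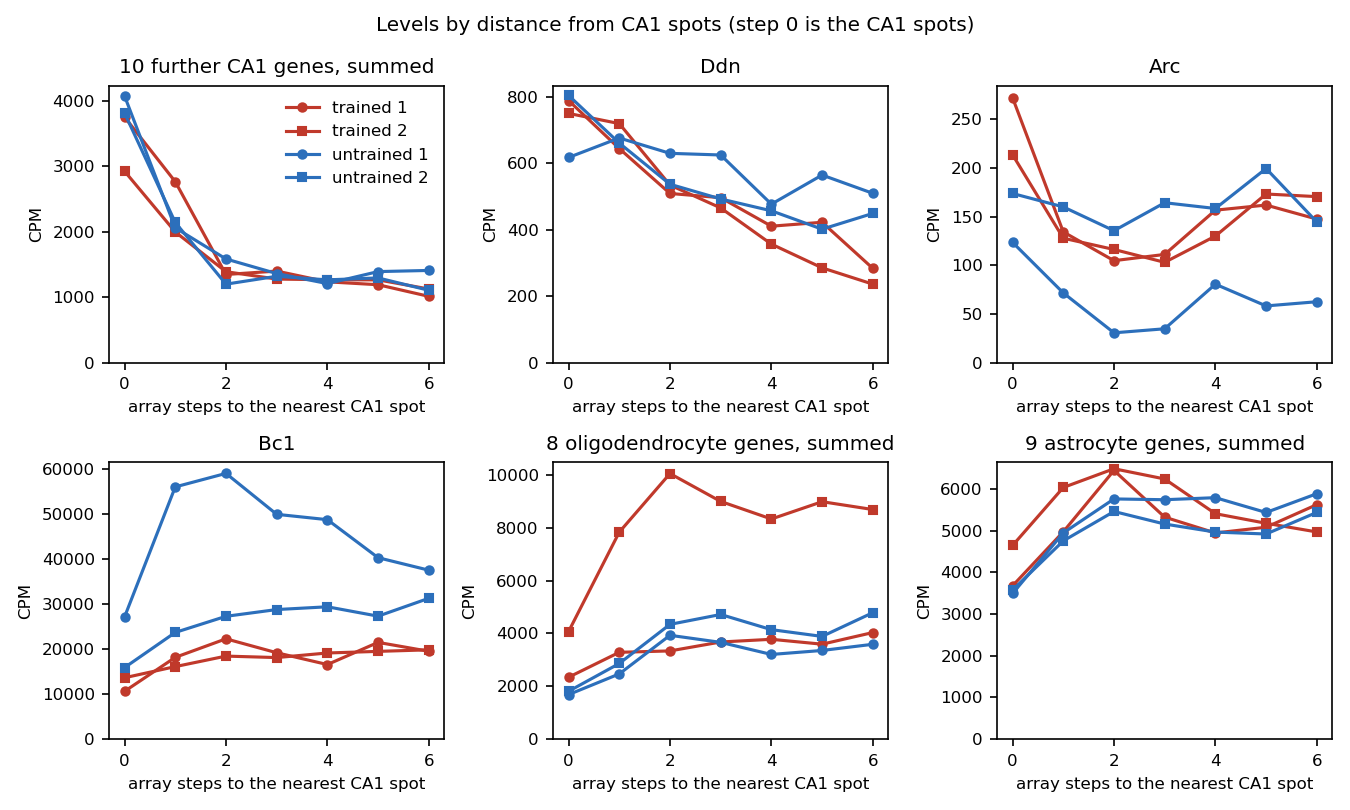
Levels in CPM by array steps to the nearest CA1 spot, with 1 line for each section (red trained, blue untrained). The summed CA1 genes are highest at step 0 in 4 sections and Ddn in 3, whereas Bc1 and the summed oligodendrocyte and astrocyte genes are lowest at step 0.

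CA1 spots also held RNA of other cell types. The 8 oligodendrocyte genes summed to 2341, 4070.0, 1683 and 1809 CPM in CA1 spots and 4150.2, 7178, 4405 and 4671 CPM in other spots, and all 8 reached 50 CPM. The 9 astrocyte genes summed to 3674, 4642, 3491 and 3573 CPM in CA1 spots, led by Apoe, and averaged 5468 CPM elsewhere. Both lists were lower in CA1 spots in 4 of 4 sections. In the arc they averaged 1936 and 3453 CPM, and in the CA1 spots outside it 4245 and 5067 CPM. Microglia genes averaged 376 CPM in CA1 spots and 498 CPM in other spots, with Ctss and C1qa among the most abundant. Endothelial genes averaged 161 and 225 CPM, and blood genes 428 and 659.9 CPM.

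The 11 interneuron genes summed to 3321, 3008, 2517 and 3688 CPM in CA1 spots and averaged 2548 CPM in other spots. Cck, a neuropeptide gene that pyramidal cells also express, gave most of it, at 2023, 1564, 1344 and 1983 CPM against 831, 706, 782 and 849 CPM. Gad1, which makes GABA, averaged 280.4 CPM against 375 CPM, and Sst, the somatostatin gene, 409 CPM against 486 CPM. The 8 choroid plexus genes summed to 1769, 1207, 1127 and 1899 CPM in CA1 spots, most of it Ttr, the transthyretin gene. The defining genes Folr1, Kcnj13 and Prlr had 0 UMIs in all CA1 spots, for which 3 counts is the limit. Meninges genes averaged 494 CPM in CA1 spots and 1138 CPM in other spots, led by Ptgds, with Col1a2 at 0 UMIs in CA1 spots.

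Whether training changed the CA1 spots was tested on the 4 sums with edgeR's quasi-likelihood test, since training was not part of the rule. Of 3082 genes that passed the filter on low counts, 0 were called at an adjusted p under 0.05 (percent called 0). At an unadjusted p under 0.05 there were 182 genes (5.91%), 95 higher (3.08%) and 87 lower (2.82%) in trained sections. DESeq2 and limma voom on the same sums also called 0, with 8 and 210 genes at an unadjusted p under 0.05. With 2 sections per group and 2 residual degrees of freedom, a p that misses the threshold does not show that levels were alike. In such sums, fewer cells of a type and less RNA per cell cannot be told apart.

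The genes with the smallest p among those higher in trained sections included 3 of myelin. Mal, a lipid-raft protein of myelin, had 19, 41, 1 and 10 UMIs, or 172, 237, 15.4 and 64.4 CPM. Both trained sections lay above both untrained ones, and untrained 1 rested on 1 UMI. The log2 difference of trained minus untrained was 2.08 (SE 0.44, adjusted p = 0.599 by edgeR, 0.000877 to 1 over the alternatives). Mbp, myelin basic protein, had 1152, 1732, 757 and 824 CPM, again without overlap, with a log2 difference of 0.89 (SE 0.23, adjusted p = 0.819 by edgeR, 0.000249 to 1 over the alternatives). Mag, a glycoprotein of the inner myelin membrane, had 81.7, 219, 30.9 and 45.1 CPM, and trained 2 was far above the rest. Its log2 difference was 1.99 (SE 0.54, adjusted p = 0.819 by edgeR, 0.000465 to 1 over the alternatives).

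The summed level of the 8 oligodendrocyte genes in CA1 spots was highest in trained 2 and did not overlap between groups, at 1.84 times the untrained mean. Of the 7 tested, 7 were higher in direction, 5 at an unadjusted p under 0.05 and 4 without overlap, with a median log2 difference of 0.89 beside 0.00 over all genes tested. None of the 8 was at 0 in any section. Among all 3082 genes, 508 (16.5%) were higher and 599 (19.4%) lower in trained sections without overlap, 1107 (35.9%) in all. In other spots the same sum was 1.25 times the untrained mean and overlapped. In the arc alone it was 2050.2, 2613, 1462 and 1617 CPM, with a smaller gap and no overlap. In the CA1 spots outside the arc it was 5181, 7475, 2018 and 2303 CPM, far higher in both trained sections. These spots gave 53 of 258, 388 of 705, 52 of 109 and 100 of 281 of the UMIs of the sum, the largest share in trained 2 and the smallest in trained 1. The part of oligodendrocyte RNA in the training difference was not tested.

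Genes of other roles were also among the 8 with the smallest p in this direction. Lrp1, an endocytic receptor for apolipoprotein E, had 318, 225, 92.7 and 116 CPM, with both trained sections above both untrained ones. Its log2 difference was 1.29 (SE 0.33, adjusted p = 0.819 by edgeR, 0.0661 to 1 over the alternatives). Xpo1, the main nuclear export receptor, had 109, 127, 30.9 and 38.6 CPM, and Gatm, which makes the precursor of creatine, 109, 121, 30.9 and 38.6 CPM. Sh2b1, an adaptor of receptor tyrosine kinases, had 136, 86.6, 15.4 and 32.2 CPM and Ddt, a cytokine related to macrophage migration inhibitory factor, 136, 162, 77.2 and 51.5 CPM. For these 4 genes the groups did not overlap, and the untrained sections rested on 1 to 8 UMIs.

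Among genes lower in trained sections, Bc1 had the smallest p. It had 1168, 2357, 1755 and 2464 UMIs, or 10597, 13607, 27106 and 15861 CPM. Untrained 1 was far above the other 3 sections, and untrained 2 lay only a little above trained 2. The log2 difference was -0.80 (SE 0.22, adjusted p = 0.819 by edgeR, 7.76e-11 to 1 over the alternatives), and without untrained 1 it was -0.36. In other spots Bc1 was likewise highest in untrained 1, and the part of that section was not tested. In the arc it had 9901, 8886, 15932 and 12069 CPM.

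Taok1, a kinase that acts on microtubules, had 99.8, 63.5, 201 and 187 CPM, and Dagla, which makes the endocannabinoid 2-arachidonoylglycerol, 72.6, 57.7, 185 and 154 CPM. Both trained sections lay below both untrained ones for each. The log2 differences were -1.26 (SE 0.36) and -1.34 (SE 0.39). Negr1, an adhesion protein of neurites, had 63.5, 69.3, 185 and 148 CPM. Fmnl1, an actin-binding formin, had 27.2, 57.7, 139 and 122 CPM and Phf20, a chromatin reader, 45.4, 52.0, 169.9 and 109 CPM. The noncoding transcript 2900052N01Rik had 18.1, 28.9, 77.2 and 109 CPM. Groups did not overlap for these 6 genes, and edgeR's adjusted p was 0.819 for each, with 0.0995 to 1 over the genes and alternatives.

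**Figure D4:**
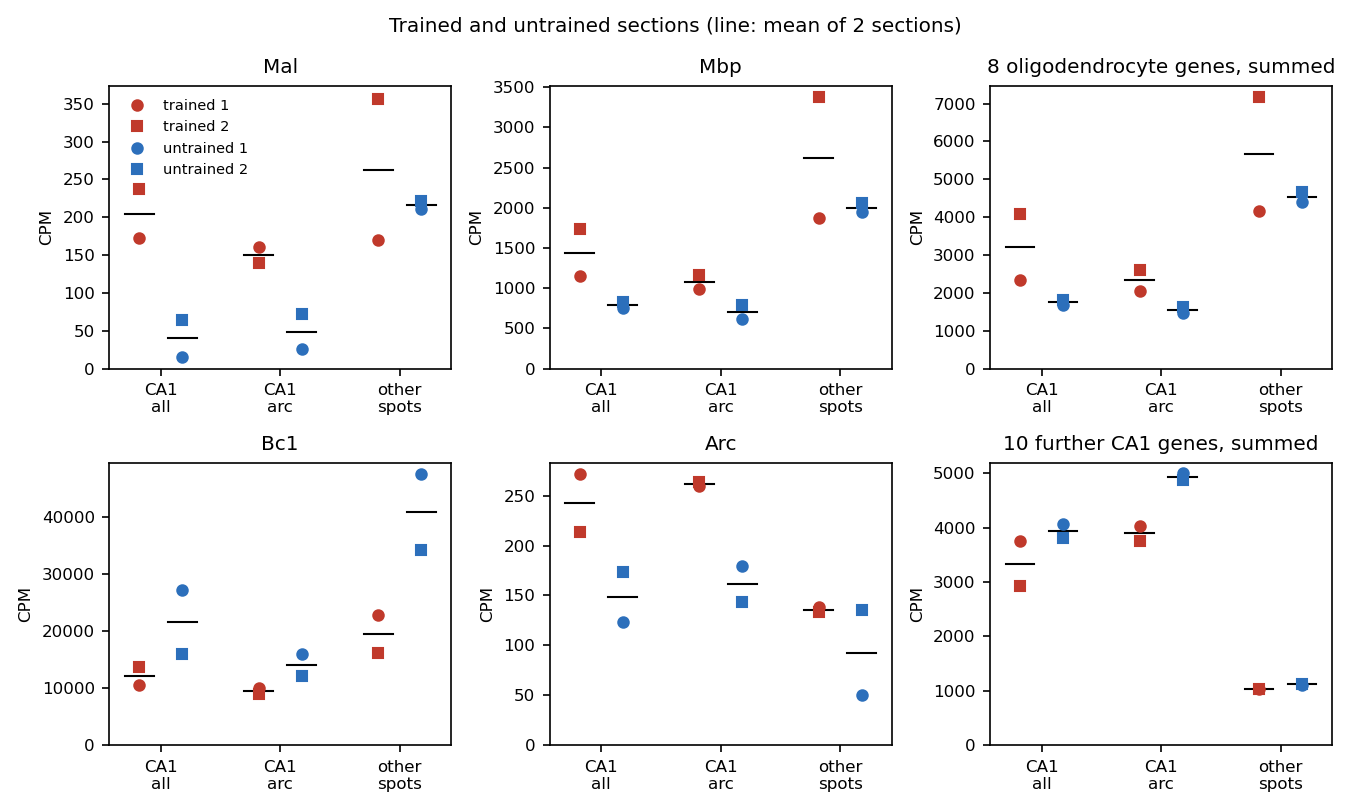
CPM in each section for all CA1 spots, the arc and other spots (red trained, blue untrained, lines at the mean of 2 sections). Trained and untrained sections do not overlap in CA1 spots for these genes and sums, and edgeR called none on the 4 sums with the filter on low counts.

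By direction, 1529 of the 3082 genes (49.6%) were higher in trained sections, and 16.5% were higher and 19.4% lower without overlap. Of the 10 further CA1 genes, 8 were tested and 0 were higher, with a median log2 difference of -0.22, and 3 had no overlap. Their summed level was lower in the trained sections in all CA1 spots, in the arc and in other spots, without overlap in each. Of 21 presynaptic genes tested, 2 were higher and 19 lower, with a median of -0.17 and 8 lower without overlap. Their summed level was 12303, 9831, 13360 and 12462 CPM, with trained 2 far lowest and trained 1 close to untrained 2. Of 29 postsynaptic genes, 8 were higher and 21 lower, with a median of -0.17, and 3 were higher and 10 lower without overlap. The presynaptic and postsynaptic sums of trained CA1 spots were 0.86 and 0.88 times the untrained mean. In other spots they were 0.94 and 0.83 times it. The groups did not overlap in any of these, so lower synaptic sums were not particular to CA1 spots. Of 78 nuclear oxidative phosphorylation genes, 60 were higher and 18 lower, 29 and 9 of them without overlap, with a median of 0.17. Their summed level was 40446, 45151, 33083 and 39479 CPM in CA1 spots, with untrained 1 lowest, and 39913, 47197, 32722 and 37033 CPM in other spots.

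Ribosome genes were higher for 59 of 80, with a median of 0.13. Their summed level was 47949, 52454, 41021 and 48600 CPM in CA1 spots, where the groups overlapped and untrained 1 was lowest. In other spots untrained 1 was also lowest, at 44708 CPM. Mitochondrially encoded genes were higher for 6 of 12, with a median of 0.00. Glutamate receptor genes were higher for 6 of 11, with a median of 0.05, and GABA receptor genes for 4 of 7, with a median of 0.01. Channel genes were higher for 10 of 22 and calcium-binding genes for 3 of 14, with medians of -0.14 and -0.22. The calcium-binding sums were 15124, 12014, 15028 and 15031 CPM, where the groups overlapped and trained 2 alone was low. Astrocyte genes were higher for 6 of 7, with a median of 0.38, and microglia genes for 2 of 2. Interneuron genes were higher for 4 of 7, and the dendritic RNAs for 5 of 12. Of the remaining lists of cell types and fields, at most 4 genes were tested in each. With edgeR on these sums no gene of any list was called, whereas list members, among them Mal, Mbp, Bc1 and Sst, were called in some alternatives. No list was tested as a set.

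Immediate early genes report recent neuronal activity, and the tissue was taken without recall. Of the 11 tested, 5 were higher and 6 lower in trained sections, with a median log2 difference of -0.06, and 2 were higher and 3 lower without overlap, near the 16.5% and 19.4% of all genes. Arc had 272, 214, 124 and 174 CPM in CA1 spots, above both untrained sections in both trained ones, and 138, 133, 49.9 and 136 CPM in other spots. Its log2 difference was 0.61 (SE 0.31, adjusted p = 0.837 by edgeR, 0.639 to 1 over the alternatives). Egr1, a zinc-finger transcription factor, had 354, 358, 216 and 289.7 CPM, also without overlap, with a log2 difference of 0.45 (SE 0.27, adjusted p = 0.874 by edgeR, 0.648 to 1 over the alternatives). Untrained 1 was the lowest section for both genes, in CA1 spots and in other spots. Jun had 18.1, 63.5, 77.2 and 77.2 CPM, lower in both trained sections without overlap. Fos had 27.2, 75.0, 0 and 57.9 CPM and Npas4 18.1, 28.9, 0 and 6.44 CPM, and both had 0 UMIs in untrained 1, for which 3 counts is the limit. Jund averaged 181 CPM.

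Shares were compared after each spot was thinned to 500 UMIs. At least 1 Arc UMI was found in 17.9, 13.2, 11.1 and 6.90% of CA1 spots, and in 6.57, 5.80, 2.33 and 6.26% of other spots. The means were 15.5% in trained and 9.004% in untrained sections, and an exact two-sided permutation test over sections gave p = 0.333, the smallest that 2 against 2 allows. These shares rested on 5, 5, 2 and 2 spots. Without thinning the shares were 57.1, 52.6, 33.3 and 51.7%. At 2 or more Arc UMIs, also without thinning, they were 17.9, 23.7, 5.56 and 27.6%, where the groups overlapped and untrained 2 was highest (exact permutation p = 1).

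Gt(ROSA)26Sor, which the study reads as the tag of cells that had expressed Arc, was found in 7.14, 7.89, 0 and 13.8% of the thinned CA1 spots and in 5.402, 6.02, 0.555 and 9.56% of other spots. Whether these counts come from the reporter or from the unaltered locus cannot be read from the files, so the shares may not be those of tagged spots. In untrained 1 a UMI of it was found in 0 of 18 thinned CA1 spots. The upper 95% limit on that detected share is 18.5%, which does not limit the share of spots that express the gene. Untrained 2 was the highest section and untrained 1 the lowest, in CA1 spots and in other spots. The means of CA1 spots were 7.52% in trained and 6.90% in untrained sections (exact permutation p = 1). Without untrained 1 the untrained share was 13.8%, and without untrained 2 it was 0. In CPM the gene had 109, 104, 0 and 187 in CA1 spots, with untrained 1 at 0 UMIs.

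Whether the training difference in CA1 spots differed from that in other spots was tested with edgeR on 8 sums, with the section as a block. Of 12251 genes, 0 were called (percent called 0), with 463 (3.78%) at an unadjusted p under 0.05, 299 higher (2.44%) and 164 lower (1.34%). The filter on low counts read all 8 sums, and those of other spots were far deeper. On the 4 CA1 sums alone 3082 genes passed it, so many of the 12251 were sparse in CA1 spots. The shares and adjusted p are over all 12251, and the count of 0 depends on that set. DESeq2 and limma voom called 0 as well, with 104 and 603 genes at an unadjusted p under 0.05. The 2 genes with the smallest p were 2010300C02Rik and Mal. 2010300C02Rik, a transcript of unnamed function, had 481, 473, 278 and 373 CPM in CA1 spots and 139, 117, 175 and 175 CPM in other spots. Trained sections were higher in CA1 spots and lower in other spots, and the difference of log2 differences was 1.07 (SE 0.24, adjusted p = 0.0882 by edgeR, 0.0149 to 1 over the alternatives). For Mal it was 1.87 (SE 0.43, adjusted p = 0.0882 by edgeR, 0.0729 to 1 over the alternatives), with 169.5, 356, 211 and 222 CPM in other spots.

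Vat1l and Ntng1 were lower in trained CA1 spots than in untrained ones relative to other spots, by log2 differences of -3.06 and -4.26. Their CA1 levels of 18.1, 5.77, 61.8 and 122 and of 0, 5.77, 77.2 and 38.6 CPM rested on 0 to 19 UMIs per section, where 3 counts is the limit for the 0. Ttr, the main choroid plexus gene, had 1461, 918, 911 and 1654 CPM in CA1 spots and 5533, 502, 2481 and 5329 CPM in other spots. In other spots trained 2 was far below the rest, and in CA1 spots the groups overlapped. Its difference was 1.13 (SE 0.28, adjusted p = 0.16 by edgeR, 6.69e-14 to 1 over the alternatives), and it took the opposite sign, -0.29, without trained 2.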

How the data were processed

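Spatial gene expression was measured with Visium in 1 section from each of 2 trained and 2 untrained mice. The values used are the UMI counts that the authors deposited, not normalized, for 32285 genes. The methods name Space Ranger v2.0.0 and mm10, the file header names spaceranger 1.2.2, and the submitters' notes name Cell Ranger 8, STAR, mm39 and GRCm39, so the version used is not settled. GENCODE vM21 (GRCm38) held 32158 of the gene IDs. The number of columns matching no sample was 0.

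The share of 3% was taken before the minimum of 2 marker UMIs was applied. The members and lists were chosen with earlier results of these data known. CA1 spots, and other spots, were summed per section, since spots of 1 mouse are not replicates. Replicate numbers came from the sample titles and were not taken as pairs. Sums were compared with edgeR 4.0.16 in R 4.3.3 (filterByExpr, TMM, glmQLFit, glmQLFTest, Benjamini-Hochberg, threshold 0.05), which estimated 15.32 prior degrees of freedom for the 4 sums. DESeq2 1.42.0 and limma 3.58.1 were alternatives. The test code was checked on simulated counts. The study's rank-sum test on single spots was not used, because it takes spots of a mouse as independent. Where a gene had 0 UMIs in a sum, the ratio used a limit of 3 counts, and a limit on the wrong side gave no direction. Shares were compared by exact permutation over sections. Numpy 2.4.6, scipy 1.17.1, pandas 2.3.3 and matplotlib 3.10.9 were used.

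The genes named are, for CA1 against other spots, the 20 highest and 8 lowest by mean log2 ratio among genes of 100 CPM or more with the same direction in 4 sections; for training, the 8 higher and 8 lower with the smallest p; for the interaction, the 5 with the smallest p; of each of 27 lists written by hand, the 3 most abundant members; and Spink8, Fibcd1, Wfs1, Arc, Egr1, Fos, Jun, Npas4, Bc1, Ttr and Gt(ROSA)26Sor. The dendritic RNAs and CA1 lists were also read by distance. Pmch outside the arc and the sensitivity genes were picked out after values were seen. The alternatives were another test, normalization or low-count filter; Bc1, Ttr, Gm42418 and mitochondrial genes dropped; thinned sums; other limits of the rule; isolated or Ttr-rich spots left out; and each section left out in turn. The arc alone, the deepest spot of each section left out and no block of section were chosen after seeing the data.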

Additional observations from a re-analysis of the deposited data

How the results depend on the processing

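The count of genes called between trained and untrained CA1 spots was 0 in most settings. It was 1 with no filter on low counts (Mal, adjusted p = 0.0479), 3 with sums thinned to the smallest total (Bc1, Sst and Mbp) and 1 with isolated spots left out (Bc1). With 1 section left out the count ranged from 0 to 13. It was 13 without trained 1 (among them Cst3, Bc1, Hcrt, Pmch, Mbp, Mag, Mobp and Mal), 2 without trained 2 (Pmch and Bc1), 1 without untrained 1 (Pmch) and 0 without untrained 2; the single section left is then assumed to vary like the others. Pmch was higher in trained sections without trained 1 or untrained 1 and lower without trained 2. Same-numbered sections share only a number: their deviations from the group means correlated at 0.0695 in 1332 genes, and with the replicate number as a block 0 genes were called, 186 at an unadjusted p under 0.05. For the difference between CA1 and other spots the count was 1 with DESeq2 size factors (2010300C02Rik), 2 with the marker minimum applied before the share (Tac1 among them), 1 with Ttr-rich spots left out (2010300C02Rik), and 0 to 1 with 1 section left out (Ttr without trained 1, Vat1l without untrained 1). The count of genes at least 2-fold higher in CA1 spots was 32 at a share of 5%, 96 in the arc alone and 71 to 82 with 1 section left out. The difference in the share with an Arc UMI was 12.4 percentage points without thinning, 4.20 at 2 or more UMIs without thinning (exact permutation p = 1), 6.41 at a share of 2% of spots (exact permutation p = 0.667) and 4.15 to 8.85 with 1 section left out. For Gt(ROSA)26Sor that difference was 0.62 with thinning, 6.97 without it and -4.55 at 2 or more UMIs without thinning. It was 4.26 at a share of 2% of spots, -2.02 at a share of 5% and -6.27 to 7.52 with 1 section left out.

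The sign of some differences that passed no test turned. Between trained and untrained CA1 spots, Spink8 was at 0.0096 in the arc and -0.23 to 0.35 with 1 section left out (0.06 without trained 2). Fibcd1 was at -0.17 with thinned sums and -0.19 to 0.48 with 1 section left out. Wfs1 was at 0.10 at a share of 2%. Spink8, Fibcd1 and Wfs1 were read by the rule, so their differences are descriptions and no test is drawn from them. Ttr was at 0.0073 with thinned sums and -0.52 to 0.42 with 1 section left out (0.11 without trained 2). Gt(ROSA)26Sor was at 0.18 with DESeq2, 0.49 with limma voom and -0.79 to 6.64 with 1 section left out. In CA1 minus other spots, Ttr was at -0.39 without Ttr-rich spots, -0.35 in the arc and -0.29 to 2.62 with 1 section left out. In CA1 over other spots, 1 log2 ratio turned, to 0.16 with spots thinned to 500 UMIs. The causes were not tested.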

Other observations

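Some of the 58 genes at least 2-fold higher in CA1 spots lie outside the 20 named above, and those given here were picked out after their values were seen, so they show no theme among the 58. Tmsb4x, which sequesters actin monomers, was the most abundant of the 58, at a mean of 6507 CPM in CA1 spots and 2244 CPM in other spots. Wasf1, which activates the Arp2/3 complex, averaged 497 CPM in CA1 spots and 215 CPM in other spots. Arpc5, a subunit of that complex, averaged 385 CPM in CA1 spots and 121 CPM in other spots, and Actr3b, an actin-related protein, 266 CPM in CA1 spots and 108 CPM in other spots. The rule chose the spots, so these are descriptions without a test.

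Kinases and signaling genes of the same group, also picked out after their values were seen, included Ptk2b, a calcium-dependent tyrosine kinase, at 647 CPM in CA1 spots and 265 CPM in other spots. Plk2, a kinase induced by activity, averaged 351 CPM in CA1 spots and 133 CPM in other spots. Atp2b1, a calcium pump of the plasma membrane, averaged 889.7 CPM in CA1 spots and 381 CPM in other spots, and Nr3c2, the mineralocorticoid receptor, 99.99 CPM in CA1 spots and 32.7 CPM in other spots. Lefty1, a secreted inhibitor of Nodal signaling, had the highest ratio of the 58 after the marker genes Spink8 and Fibcd1, at a mean log2 ratio of 4.14 and 92.6 CPM in CA1 spots and 5.20 CPM in other spots.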
